A study of Mus musculus with 8 samples.

Results

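The 9 genes described here encode neurotrophic factors and their receptors, and they were taken by gene symbol from the 24346 genes that the FPKM tables of the study list. They are the neurotrophin ligands Bdnf, Ntf3 and Ntf5 (neurotrophin-4), the neurotrophin receptors Ngfr, Ntrk2 and Ntrk3, the ligand Gdnf and its receptors Ret and Gfra1. Total RNA was sequenced from primary cultures of adipose-derived stem cells (ADSCs) of wild-type BALB/c mice, prepared from the gonadal fat of males aged 12 weeks. Conventional 2D cultures of mice 2, 3, 4 and 5 (n = 4) were compared with 3D cultures grown as organoids in Matrigel, a basement membrane gel, of mice 1, 4, 5 and 7 (n = 4), and mice 4 and 5 are thus represented in both. The 3D medium was tested by the authors with several amounts of Wnt3a- and R-Spondin1-conditioned medium, and the amount and the passage of the sequenced cultures are not given in the sources used here. The paper sets the conventional 2D medium apart from the 3D media, so medium, Matrigel and growth as organoids cannot be told apart here.

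Neurotrophins are secreted proteins that are cleaved from longer precursors. Mature BDNF and neurotrophin-4 bind the receptor tyrosine kinase TrkB (Ntrk2), neurotrophin-3 binds TrkC (Ntrk3), and all of these bind the p75 receptor (Ngfr) as well. GDNF binds its membrane-anchored co-receptor GFRα1 (Gfra1), and the complex activates the receptor tyrosine kinase RET. These proteins are best known for the survival and growth of neurons, BDNF is also made by fibroblasts, and GDNF from mesenchyme acts through RET on the epithelium of the ureteric bud.

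The genes of GDNF signalling and Bdnf were expressed in 2D cultures and were low in 3D cultures. Bdnf, Gdnf, Ret and Gfra1 fell in 3D, which is 4 of the 9 genes, against 20.3% of the 18862 genes tested that were lower and 41.5% that changed in either direction at a limma adjusted p below 0.05. Of the 9 genes, 0 rose at this threshold, against 21.2% of all genes tested that were higher. At an unadjusted limma p below 0.05, 0 rose as well, and the share of all genes at that threshold is not given here. Ntf5, Ngfr, Ntrk2, Ntrk3 and Ntf3 did not pass the test. A fit that blocks on mouse, with 1 residual degree of freedom, called 0 members and 0 genes of a wider pathway list, as detailed further on. The median log2 fold change of the 9 genes was 0.018, and that of all genes tested was 0.0012. All values below are quantile-normalized FPKM (fragments scaled to transcript length and library depth) unless they are called deposited, and log2 fold changes are those of log2(FPKM + 1), 3D minus 2D, with the standard error of the limma fit.

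Sequences before the transcription start are shown for Bdnf, Gdnf and Gfra1, which fell together, and for Ngfr, whose 3D libraries split. RefSeq (GRCm38.p6) gave 14 start sites for 6 of the 9 genes, with 7 for Bdnf, and the FPKM values are sums per gene that do not separate these starts. Each line gives the 250 bases before 1 start, 5′ to 3′ on the strand of the gene, for the start with the most matches where a gene had several. Capitals mark matches on either strand. The motif of the AP-1 factors was searched as TGANTCA. The motif of the TEAD factors was searched as GGAATG. The GC box, bound by Sp1, was searched as GGGCGG. The TATA box was searched as TATAAA.
Bdnf (chr2:109676782-109677031, plus strand): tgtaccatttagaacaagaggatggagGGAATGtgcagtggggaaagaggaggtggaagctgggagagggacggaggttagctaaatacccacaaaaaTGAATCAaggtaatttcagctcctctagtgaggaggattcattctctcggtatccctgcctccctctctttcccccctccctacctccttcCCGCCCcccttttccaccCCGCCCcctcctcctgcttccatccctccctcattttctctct
Gdnf (chr15:7809798-7810047, plus strand): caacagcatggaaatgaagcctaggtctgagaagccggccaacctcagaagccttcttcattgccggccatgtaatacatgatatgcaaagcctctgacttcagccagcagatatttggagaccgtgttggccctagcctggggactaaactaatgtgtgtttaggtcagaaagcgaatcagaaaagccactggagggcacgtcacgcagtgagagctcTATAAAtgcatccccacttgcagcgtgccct
Gfra1 (chr19:58455399-58455648, minus strand): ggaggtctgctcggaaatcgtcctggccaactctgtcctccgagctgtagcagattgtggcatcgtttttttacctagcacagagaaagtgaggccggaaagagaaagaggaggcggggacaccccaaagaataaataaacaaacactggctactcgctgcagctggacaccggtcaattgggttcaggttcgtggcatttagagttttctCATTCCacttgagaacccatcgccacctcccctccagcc
Ngfr (chr11:95587699-95587948, minus strand): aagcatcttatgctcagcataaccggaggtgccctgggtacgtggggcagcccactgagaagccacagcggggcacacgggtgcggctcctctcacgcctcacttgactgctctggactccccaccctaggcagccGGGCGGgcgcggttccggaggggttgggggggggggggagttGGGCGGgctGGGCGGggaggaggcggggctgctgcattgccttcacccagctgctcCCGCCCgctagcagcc
The Bdnf window held 1 AP-1, 1 TEAD and 2 GC box matches, the Gdnf window 1 TATA box match 31 bases before the start, the Gfra1 window 1 TEAD match, and the Ngfr window 4 GC box matches. Over the 14 windows of the 6 genes, 1 held an AP-1, 3 a TEAD, 5 a GC box and 1 a TATA box match, and 0 held the cyclic AMP response element TGACGTCA. The shares among 32851 promoter windows of the same length were 6.75%, 12.6%, 32.7%, 12.4% and 1.55% in the same order. These letters do not show binding of a factor.

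The libraries separated by culture as a whole. On log2(FPKM + 1), Pearson's r ran from 0.932 to 0.974 within each culture type and lay between 0.758 and 0.823 across them. The estimated depth was 14.5 M to 17.3 M fragments per library, with a ratio of the largest to the smallest of 1.19. The label of mesenchymal stem cells was checked against 10 stromal markers, of which 9 were lower in 3D, and their summed level was between 2130 and 4734 FPKM in 2D and between 0.114 and 2.31 FPKM in 3D, with Pdgfrb and Dcn listed at 0 in every 3D library. Of 10 epithelial markers, 9 were higher in 3D, and their sum was between 3.78 and 585 FPKM in 2D and between 2594 and 2972 FPKM in 3D. Their part in the results below was not tested, and fewer cells of a type and less RNA per cell cannot be told apart in these bulk samples. The 5 mesothelial markers summed to 816 and 2002 FPKM for mice 3 and 4 in 2D and to 1.99 and 0.525 FPKM for mice 2 and 5. Of 6 tested Schwann cell markers 2 were higher in 3D, Erbb3 and Sox10. Erbb3 was at most 0.359 FPKM in 2D and between 15.6 and 24.8 FPKM in 3D. Sox10 was close to 0 in both, at most 0.0482 FPKM in 2D and between 0.0506 and 0.0865 FPKM in 3D. Its log2 fold change was 0.084. Mbp was between 0.472 and 22.9 FPKM in 2D and between 14.6 and 23.8 FPKM in 3D, and Cdh19 and Foxd3 were listed at 0 throughout. Of 8 neuronal markers Tubb3 was lower (at least 31.6 FPKM in 2D, at most 0.519 in 3D) and Map2 higher (at most 0.273 FPKM in 2D, 6.17 to 11.3 in 3D), Stmn2 was at most 0.484 FPKM in 2D and at 0 in 3D, and Elavl3, Elavl4, Snap25, Syt1 and Rbfox3 stayed at or below 0.0772 FPKM. Of the other lists, 4 of 5 nephric duct markers were higher (summed level 13.4 to 24.1 FPKM in 2D, 92.8 to 145 in 3D). Of 6 pericyte and smooth muscle markers 4 were lower and 1 higher (628 to 2496, at most 17.0). Acta2 alone was at 616 to 2472 FPKM in 2D, and Rgs5, Cspg4, Des, Myh11 and Notch3 were at most 20.6 FPKM there. Of 5 macrophage markers 1 was higher (2.07 to 21.3, 6.25 to 42.3). Of 3 adipocyte markers 1, Fabp4, was lower (4.16 to 81.2, at most 0.104). Fabp4 made up nearly all of that sum, with Plin1 and Cidec at most 0.111 FPKM. None of the 4 endothelial markers (at most 6.42 FPKM summed) or of the 5 mesothelial markers passed limma's adjusted threshold, and 1 and 0 of them had an unadjusted p below 0.05.

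Bdnf (ENSMUSG00000048482, chr2:109674700-109727007, plus strand) encodes brain-derived neurotrophic factor and was the most abundant of the 9 transcripts in 2D. It stood at 14.8, 29.1, 34.2 and 18.4 FPKM in 2D (mice 2, 3, 4 and 5, in this order), and at 0.0536, 0.818, 0.808 and 0.417 FPKM in 3D (mice 1, 4, 5 and 7). The groups were far apart, and the lowest value belonged to the 3D library of mouse 1. The mean fell from 24.1 ± 9.04 to 0.524 ± 0.365 FPKM (SD, n = 4), a 46.1-fold lower mean, with a log2 fold change of -4.00 (SE 0.31, adjusted p of 5.0e-05 by limma). At the length of its transcripts, the 2D values rest on about 922 to 2750 fragments, and the lowest 3D value on about 4.47 to 5.14 fragments.

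Within 2D, Bdnf was higher in mice 3 and 4, whose libraries carry the mesothelial markers, than in mice 2 and 5. Without the 2D libraries of mice 3 and 4 its log2 fold change was -3.55 (limma's adjusted p = 6.8e-04). They were the highest in 2D for Bdnf and were left out after the values were seen. Leaving them out was bound to shrink the fall, and only mice 2 and 5 remained in 2D. The genes whose levels lay closest to those of Bdnf over the 8 libraries, by Euclidean distance on the log2 scale among 12578 genes averaging 1 FPKM or more, were Cercam, Colec12 and Fbln5, at distances of 0.796, 0.866 and 0.977. Fbln5, an elastic fibre protein, was between 19.3 and 32.3 FPKM in 2D and between 0.101 and 0.352 FPKM in 3D.

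Ntf5 (ENSMUSG00000074121, chr7:45413695-45417179, plus strand) encodes the other TrkB ligand and was present in both cultures. It stood at 1.99, 2.53, 2.42 and 0.872 FPKM in 2D (mice 2, 3, 4 and 5) and at 5.60, 2.62, 2.13 and 2.48 FPKM in 3D (mice 1, 4, 5 and 7). The cultures overlapped, and the highest value was that of the 3D library of mouse 1. The fitted log2 change was 0.49 (SE 0.31, adjusted p of 0.243 by limma), and it was 0.25 without that library and 0.28 without the 2D library of mouse 5. On the deposited values, which run up to 2.30 FPKM in 2D and from 2.44 FPKM in 3D, the libraries did not overlap and the log2 fold change was 0.78, with a limma adjusted p of 0.097. Ntf3 (ENSMUSG00000049107, chr6:126101412-126166910, minus strand) was listed at 0 in 7 libraries and at 0.0510 FPKM in the 3D library of mouse 4, about 1.20 to 1.32 fragments, too few to compare the cultures.

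The mix of these ligand transcripts also differed between the cultures. Within a library, where no scaling between libraries enters, Bdnf made up between 90.9% and 97.2% of the summed deposited FPKM of Bdnf, Ntf3 and Ntf5 in 2D, and Ntf5 between 2.80% and 9.12%. In 3D the share of Bdnf was between 1.30% and 28.0% and that of Ntf5 between 72.0% and 98.7%. The sum of the 3 genes was between 16.5 and 39.5 deposited FPKM in 2D and between 3.06 and 6.40 in 3D. The larger share of Ntf5 in 3D therefore accompanied a smaller total.

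**Figure D1:**
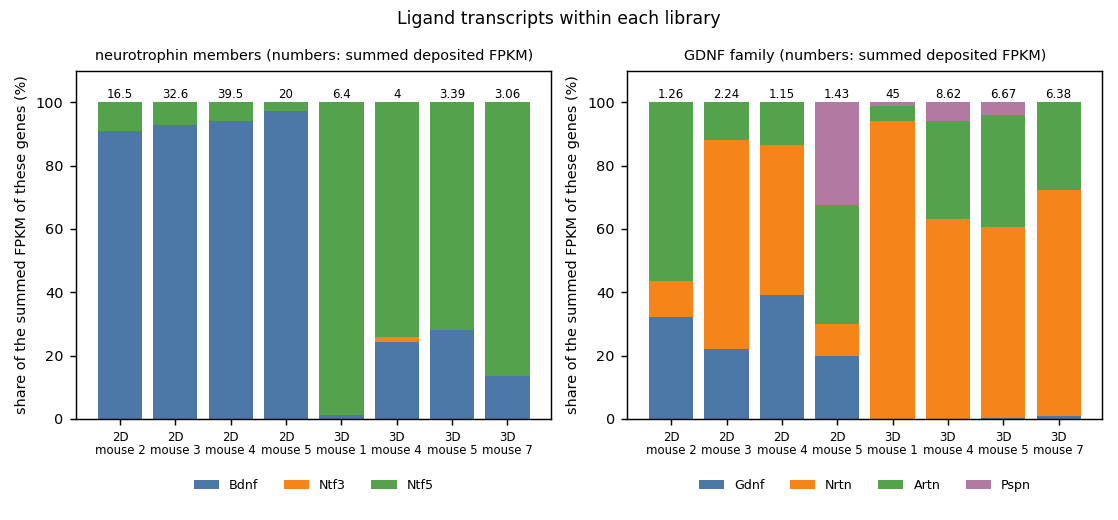
Share (%) of each ligand in the summed deposited FPKM of Bdnf, Ntf3 and Ntf5 (left) and of the GDNF family ligands Gdnf, Nrtn, Artn and Pspn (right), with 1 bar per library and the sum above each bar. Bdnf fills at least 90.9% of the left bars in 2D, Ntf5 takes between 72.0% and 98.7% of them in 3D, and Gdnf, with a median share of 27.1% in 2D, is at most 0.910% in 3D.

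The neurotrophin receptors were at most 0.129 FPKM in 2D and varied between mice in 3D. Ngfr (ENSMUSG00000000120, chr11:95568818-95587735, minus strand), the p75 receptor, stood at 0.0319, 0.0169, 0.0200 and 0.0337 FPKM in 2D (mice 2, 3, 4 and 5, in this order), which is about 1.02 to 2.03 fragments each. In 3D it was at 8.16 FPKM in mouse 1 and 3.45 FPKM in mouse 4, about 436 and 206 fragments, but at 0.0426 and 0.0402 FPKM in mice 5 and 7, about 2.04 fragments each. The 3D libraries of mice 1 and 4 were high, and those of mice 5 and 7 were as low as the 2D libraries within counting error. The fitted log2 change was 1.33 (SE 0.70, adjusted p of 0.168 by limma) and 0.71 when the 3D culture of mouse 1 was left out. Of the animals with both cultures, mouse 4 thus had p75 transcripts in 3D above its own 2D library, and mouse 5 had about 1 to 2 fragments in either.

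Ntrk2 (ENSMUSG00000055254, chr13:58806569-59133970, plus strand), the TrkB receptor of BDNF and neurotrophin-4, was at 0.0345 FPKM for mouse 2 in 2D and listed at 0 in the other 2D libraries. In 3D it was at 0.711, 0.0992, 0.0207 and 0.0470 FPKM in mice 1, 4, 5 and 7. The fitted log2 change was 0.24 (SE 0.16, adjusted p of 0.262 by limma) and 0.060 after leaving out mouse 1 in 3D, which held the highest value. Ntrk3 (ENSMUSG00000059146, chr7:78175959-78738012, minus strand), the TrkC receptor, was at 0.129, 0, 0.00491 and 0.0534 FPKM in 2D and at 0.311 FPKM in the 3D library of mouse 1, with the other 3D libraries at 0. Its fitted log2 change of 0.033 (SE 0.095, adjusted p of 0.795 by limma) turned to -0.059 when mouse 1 in 3D was left out. The 3D library of mouse 1 thus had the highest level of Ngfr, Ntrk2 and Ntrk3 together, and its sum of Schwann cell markers, 35.8 FPKM, lay within the 35.2 to 49.7 FPKM of the 3D libraries. The annotated transcripts of Ntrk2 and Ntrk3 run from 2284 to 8744 nt and from 423 to 19703 nt, so no fragment number is given for them.

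**Figure D2:**
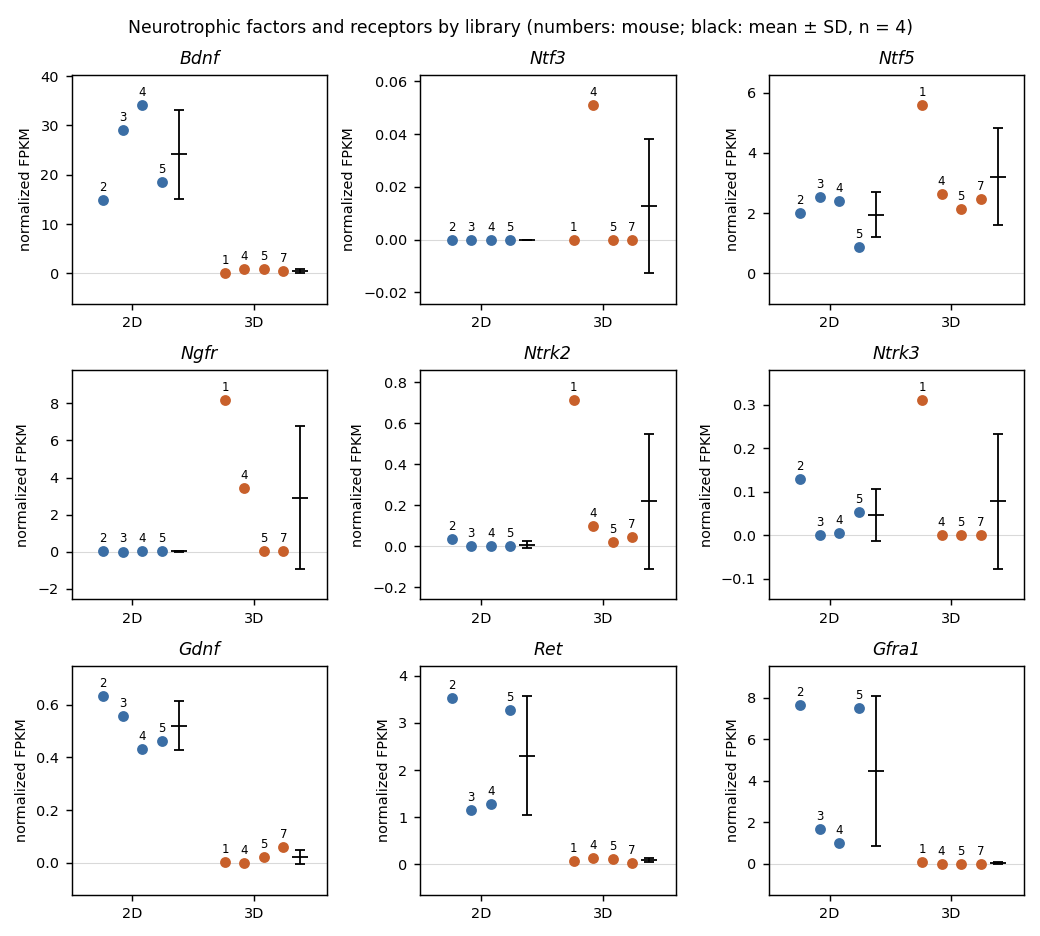
Quantile-normalized FPKM of the 9 genes in each library, with 2D in blue and 3D in orange, the mouse number above each point, and the mean ± SD (n = 4) in black. Bdnf, Gdnf, Ret and Gfra1 are higher in every 2D library than in any 3D library, and the 3D library of mouse 1 is the highest for Ntf5, Ngfr, Ntrk2 and Ntrk3.

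Gdnf (ENSMUSG00000022144, chr15:7810846-7837575, plus strand) encodes the ligand of GFRα1 and RET and was low in 2D and nearly undetected in 3D. It stood at 0.633, 0.557, 0.432 and 0.461 FPKM in 2D (mice 2, 3, 4 and 5), about 17.3 to 31.1 fragments, and at 0.00501, 0, 0.0217 and 0.0611 FPKM in 3D (mice 1, 4, 5 and 7), at most 3.32 fragments. The groups did not overlap, and the 2D libraries lay close together. The fitted log2 change was -0.57 (SE 0.050, adjusted p of 8.9e-05 by limma), and with a pseudocount of 0.1 it was -2.36, since the pseudocount of 1 exceeds the level of the gene.

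Ret (ENSMUSG00000030110, chr6:118151745-118197718, minus strand), the signalling receptor, stood at 3.53, 1.15, 1.28 and 3.27 FPKM in 2D and at 0.0722, 0.137, 0.116 and 0.0332 FPKM in 3D. All 2D libraries lay above all 3D libraries, and mice 2 and 5 had more than mice 3 and 4 in 2D. The mean fell from 2.31 ± 1.26 to 0.0895 ± 0.0462 FPKM (SD, n = 4), 25.8-fold lower, with a log2 fold change of -1.52 (SE 0.26, adjusted p of 0.00266 by limma). The 3D values rest on about 2.18 to 13.3 fragments and the 2D values on about 78.2 to 261. With a pseudocount of 0.1 the log2 fold change was -3.53.

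Gfra1 (ENSMUSG00000025089, chr19:58235604-58455909, minus strand), the GDNF co-receptor, had the same split in 2D, with 7.67 and 7.52 FPKM in mice 2 and 5 against 1.69 and 0.985 FPKM in mice 3 and 4. In 3D it was at 0.0957 FPKM in mouse 1 and listed at 0 in mice 4, 5 and 7. The groups did not overlap. The fitted log2 change was -2.12 (SE 0.50, adjusted p of 0.0108 by limma), and with a pseudocount of 0.1 it was -4.79. Without the 2D libraries of mice 3 and 4, which carry the mesothelial markers, it was -3.09 for Gfra1 and -2.04 for Ret, with limma adjusted p-values of 1.5e-05 and 3.1e-05. These libraries were the lowest in 2D for both genes and were left out after the values were seen. Leaving them out was bound to enlarge both falls, and only mice 2 and 5 remained in 2D. The ratio of deposited Gfra1 to Ret FPKM within a 2D library was 2.42, 1.51, 0.770 and 2.56 in mice 2, 3, 4 and 5.

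In the 2D cultures of mice 3 and 4 Bdnf was at its highest and Ret and Gfra1 at their lowest. The mesothelial markers were high in mice 3 and 4, and their part in this pattern was not tested. The genes closest to Ret by the same distance were Kcnh2, Palm2 and M1ap, at 0.423, 0.437 and 0.444, and those closest to Gfra1 were 1700009N14Rik, Rasl12 and Mdga1, at 0.452, 0.529 and 0.572. Mdga1, a membrane-anchored adhesion protein, was between 0.751 and 5.73 FPKM in 2D and at most 0.0511 FPKM in 3D.

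By level, the 9 genes had a different order in each culture. In 2D Bdnf came first in every library, Gfra1, Ret and Ntf5 followed with means of 4.47, 2.31 and 1.95 FPKM and overlapping libraries, and Gdnf, between 0.432 and 0.633 FPKM, lay below these and above Ntrk3, Ngfr, Ntrk2 and Ntf3, which did not exceed 0.129 FPKM. In 3D Ntf5 came first by its mean of 3.21 ± 1.61 FPKM (SD, n = 4), Ngfr followed at 2.92 ± 3.84 FPKM with a range from 0.0402 to 8.16 FPKM that overlapped those of all the others, and the remaining genes did not exceed 0.818 FPKM.

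For mice 4 and 5, which gave both cultures, the mouse was also fitted as a block, a fit that leaves 1 residual degree of freedom. Under this block 0 of the 9 genes passed after adjustment in limma and 3 were below 0.05 before adjustment. The unadjusted p of limma was 0.00727 for Bdnf, 0.00357 for Gdnf, 0.0446 for Ret and 0.104 for Gfra1, and the adjusted values were 0.113, 0.111, 0.173 and 0.26. The log2 fold changes under the block were -3.85, -0.52, -1.47 and -2.04.

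A wider list of 53 genes of these pathways was examined in the same fit, of which Gfra3 and Shc3 were listed at 0 in every library and 51 were tested. At a limma adjusted p below 0.05, 17 (33.3%) were lower and 10 (19.6%) higher in 3D, against 20.3% and 21.2% of all genes tested. The median log2 fold change was -0.28. Under the block 0 passed while 19 were below 0.05 before adjustment. Gdf15 of this list, with a limma p of 2.01e-04 under the block before adjustment, had an adjusted p of 0.111, the same as Gdnf. The share of all genes that pass under the block is not given here. Libraries did not overlap between the cultures for 27 of the 51 genes and for 5 of the 9 members, against 42.5% of all genes tested. For Ngfr, 1 of these 5, the gap lies at about 2 fragments.

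Among the other ligands and receptors of the GDNF family, 3 of the 8 tested genes rose (37.5%) and 2 fell (25%). Of all genes tested, 21.2% rose and 20.3% fell. Nrtn encodes neurturin, a GDNF family ligand that prefers the co-receptor GFRα2. It stood at 0.229, 1.63, 0.527 and 0.223 FPKM in 2D (mice 2, 3, 4 and 5) and at 48.2, 5.06, 3.62 and 4.17 FPKM in 3D (mice 1, 4, 5 and 7). The log2 fold change of Nrtn was 2.55 (SE 0.76, adjusted p of 0.0295 by limma) and 1.75 when mouse 1 in 3D was left out (limma's adjusted p = 0.00435). The adjusted p of limma was 0.0735, 0.0653 and 0.0737 without the 2D library of mouse 2, 4 or 5. Artn, which encodes artemin, rose from 0.575 ± 0.429 to 1.94 ± 0.321 FPKM (SD, n = 4), a fitted log2 change of 0.94 (SE 0.20, adjusted p of 0.00809 by limma).

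Gdf15, a distant member of the TGF-beta superfamily whose receptor GFRAL signals through RET, had the largest rise of the list on the log2(FPKM + 1) scale, whereas with a pseudocount of 0.1 the log2 change was 7.14 for Sorl1 and 6.32 for Gdf15. Gdf15 went from 10.4 ± 5.25 to 866 ± 459 FPKM (SD, n = 4), a fitted log2 change of 6.18 (SE 0.50, adjusted p of 6.4e-05 by limma), and Gfral itself stayed at or below 0.0300 FPKM. Of the co-receptors, Gfra4 fell from 1.53 ± 0.668 to 0.141 ± 0.0369 FPKM (SD, n = 4), a fitted log2 change of -1.12 (SE 0.17, adjusted p of 0.00131 by limma). Gfra2 was at most 0.407 FPKM in any library, and the cell adhesion molecule Ncam1, an alternative GDNF receptor, fell from 127 ± 45.5 to 18.6 ± 10.6 FPKM (SD, n = 4). In the 3D libraries the sum of Gdnf, Nrtn, Artn and Pspn was 45.0 deposited FPKM in mouse 1 and between 6.38 and 8.62 in mice 4, 5 and 7. In 2D the sum was 1.15 to 2.24. Deposited Ret was at most 0.154 FPKM in 3D.

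The sortilin family of sorting receptors, some of which bind proneurotrophins and act with p75, split. Sorl1 rose from 0.107 ± 0.0782 to 29.9 ± 14.1 FPKM (SD, n = 4), a fitted log2 change of 4.70 (SE 0.29, adjusted p of 1.5e-05 by limma). Sort1, which encodes sortilin, was at 0.951, 8.25, 9.38 and 0.400 FPKM in 2D (mice 2, 3, 4 and 5) and at 80.7, 18.6, 28.9 and 27.6 FPKM in 3D (mice 1, 4, 5 and 7), a log2 fold change of 3.09 (SE 0.77, adjusted p of 0.0142 by limma). Sorcs2 fell by 2.61 with overlapping libraries (limma's adjusted p = 0.0305), and Sorcs1 and Sorcs3 did not pass.

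Among 12 tested adaptor genes of Trk and RET receptors, 4 fell (33.3%) and 1 rose (8.33%), against 20.3% and 21.2% of all genes tested. Shc2, Dok5 and Dok6, adaptors known from neurons, were between 3.29 and 9.60, 2.67 and 14.8, and 2.06 and 4.70 FPKM in 2D, and at most 0.00429, 0.0413 and 0.110 FPKM in 3D. The widely expressed adaptors Grb2 and Shc1 had log2 fold changes of 0.11 and -0.51, with limma adjusted p-values of 0.577 and 0.171. Among 6 feedback inhibitors and ETV transcription factors downstream of RET and other receptor tyrosine kinases, 2 rose (33.3%) and 1 fell (16.7%). Of all genes tested, 21.2% rose and 20.3% fell. Spry1, a feedback inhibitor of such receptors, rose from 12.8 ± 5.70 to 51.1 ± 14.7 FPKM (SD, n = 4), a fitted log2 change of 1.98 (SE 0.33, adjusted p of 0.00228 by limma). Spry2, which encodes a related inhibitor, had a log2 fold change of 1.45 (limma's adjusted p = 0.0346). That call was lost on the deposited values and with upper quartile scaling (limma's adjusted p = 0.086 and 0.0777) and without the 2D library of mouse 2 or 5 or any 3D library.

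**Figure D3:**
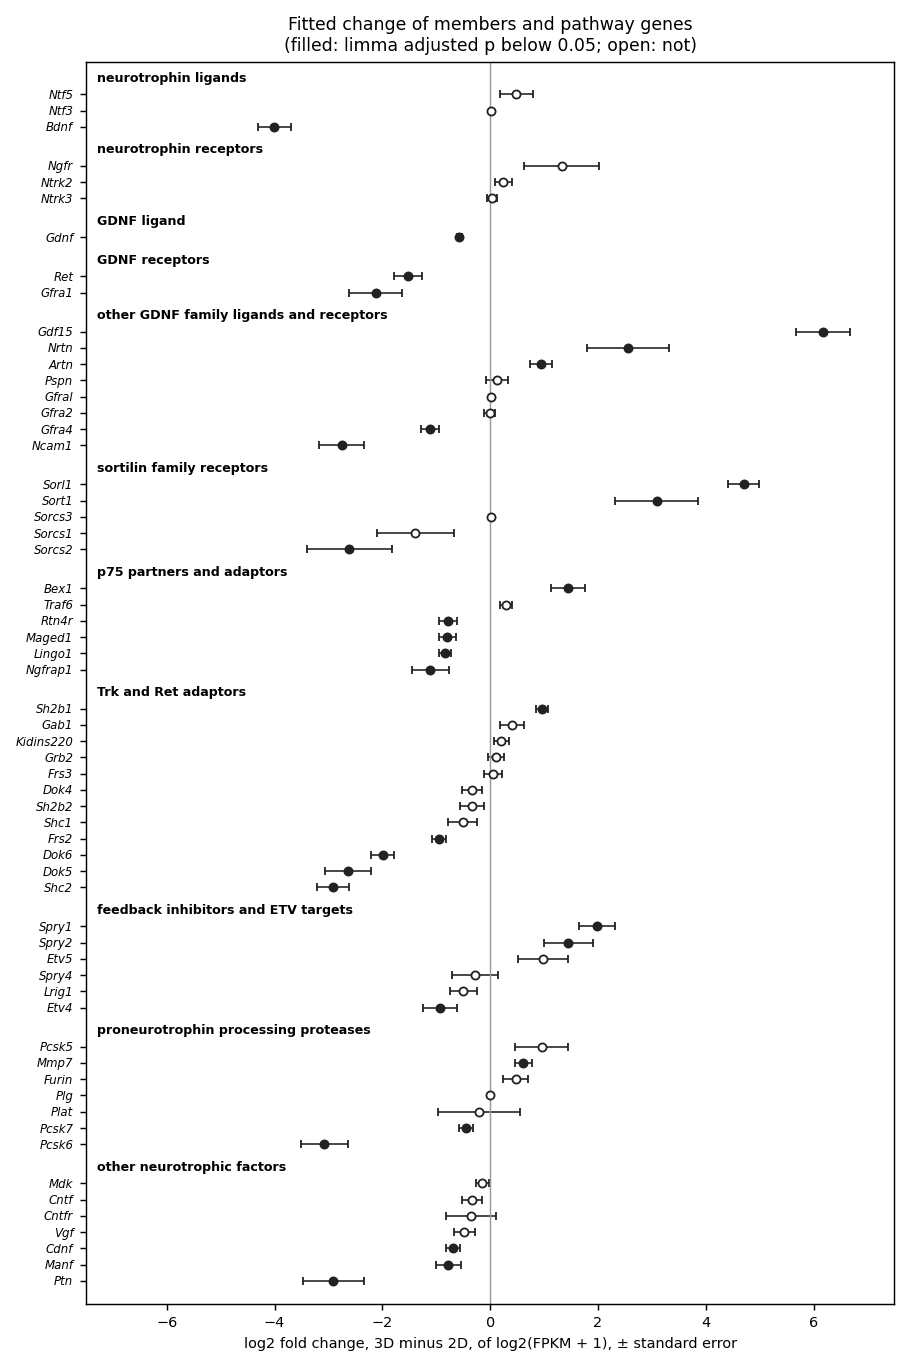
Fitted log2 fold change (3D minus 2D, of log2(FPKM + 1)) with its standard error for the 9 members and the 51 tested genes of the wider list, by role. Filled points passed limma's adjusted p below 0.05 and open points did not. Bdnf lies near -4, the neurotrophin receptors are open, and Gdf15, Sorl1, Sort1 and Nrtn lie farthest to the right.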

How the data were processed

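Directional libraries of total RNA were made after depletion of ribosomal RNA. Quality control of the paired-end reads by the authors used FastQC, trimming used FASTX_Trimmer with BBMap, TopHat did the mapping and Cufflinks gave the expression values. The deposited FPKM values carry no read counts, and mm10 is the build in the submitters' processing notes. The annotation and the strand setting of the counting are not given in the sources used here. Antisense genes overlap Bdnf, Ntrk2, Ntrk3 and Gfra1 in GENCODE M21 and are not listed in the files, so their reads could not be told apart without strand.

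Genes at 0 in every library (5484) were left out. The remaining 18862 were quantile normalized, a step that the study also took, converted to log2(FPKM + 1) and tested for 3D against 2D without covariates by the moderated, intensity-trended test of limma (version 3.58.1, R 4.3.3). The p-values of all these genes were corrected together (Benjamini-Hochberg). The fit was tested on simulated data.

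The size of 1 fragment in low FPKM values gave each library's depth, using 875 genes whose only GENCODE M21 transcript has 3000 nt or more. Between 68.3% and 82.1% of these values lay within 0.15 of a whole fragment. Fragment numbers use the annotated transcript lengths (a range where they differ) and cover counting error only. Genes are placed by GENCODE M21 (GRCm38, the same assembly as mm10), to which 95.7% of the symbols matched.

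The genes named are the 9 members and up to 15 genes of the wider list with an adjusted p below 0.05, a log2 fold change beyond 1 in size and libraries that do not overlap, plus the 3 nearest genes of each called member with a culture mean of at least 1 FPKM. Others are named as members of the fixed lists, some chosen after their values were seen. Some genes of the wider list are not reported here and were left out of its counts. The members and lists were chosen with earlier results of these data known. Marker lists for cell types were stromal, epithelial, nephric duct, Schwann, neuronal, endothelial, macrophage, pericyte, mesothelial and adipocyte genes.

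Mice 4 and 5 are the same animals in both cultures by the labels. The deviations of their libraries from the culture means correlated at -0.0527 and -0.113 over 12583 genes. The alternatives were other scalings, pseudocount, filter, trend, a mouse block (fixed or random), only mice 4 and 5, genes under 300 nt dropped and libraries omitted singly. The fit without the 2D libraries of mice 3 and 4 was chosen after seeing the data.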

Additional observations from a re-analysis of the deposited data

Results flagged for a closer look

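Of 48 groups of 4 libraries (24 named genes in 2 cultures), 10 held a library whose gap to the nearest other one exceeded Dixon's critical share of the range of the group. Chance flags about 1 in 20 groups of continuous values, a rate that does not apply to the 8 flags where the other libraries were all at 0, since any value above 0 is then flagged. In 6 of the 10 the library was the 3D library of mouse 1, whose title and group label say 3D while its short description lacks the 3D that the other 3D samples carry there, with no reason given. It held the high value for Nrtn (48.2 FPKM), Ntrk2 (0.711 FPKM), Ntrk3 (0.311 FPKM), Dok6 (0.110 FPKM), Gfra1 (0.0957 FPKM) and Shc2 (0.00429 FPKM), the last 4 against 0 in the other 3D libraries. The other flags were Ntf3 in the 3D library of mouse 4 (0.0510 FPKM), Dok5 in the 3D library of mouse 7 (0.0413 FPKM), Bex1 in the 2D library of mouse 4 (0.149 FPKM) and Ntrk2 in the 2D library of mouse 2 (0.0345 FPKM), each against 0 in the other libraries of the group.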

How the results depend on the processing

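With the mouse as a replicate block, 0 members and 0 genes of the wider list passed limma's adjusted threshold in either direction, while 3 and 19 were below 0.05 before adjustment. In the fit restricted to mice 4 and 5, 2 members (Bdnf and Gdnf) were lower, and 5 genes of the wider list were lower and 4 higher. The shares of all genes that passed in these fits are not given here, so the lower counts are not read as particular to these genes. Ntrk3, which did not pass, turned to -0.041 under the block, -0.041 with only mice 4 and 5 and -0.024 without the 2D libraries of mice 3 and 4, and ranged from -0.059 to 0.073 with each library left out in turn. The cause was not tested, other than that the block leaves 1 residual degree of freedom. All other counts of members and of the wider list stayed within 1.5 times the reported ones, and the direction of the other 23 named genes was kept in each alternative that tested them, except that Ntf3 was 0 without the 3D library of mouse 4. The mouse as a random effect changed no call of the 24. Its estimated correlation within a mouse was -0.0439, so this fit was close to the one without a block and could hardly change a call. A filter on a mean of 1 FPKM removed Gdnf, among others. A pseudocount of 0.1 enlarged the changes of genes below a few FPKM. Levels under about 3 fragments, as for Ngfr in 2D and Gdnf in 3D, limit what these libraries can tell apart.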

Other observations

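Of 6 genes whose products bind p75 or its partners, 4 were lower in 3D and 1 was higher at a limma adjusted p below 0.05. Of all genes tested, 20.3% were lower and 21.2% higher. Maged1, an adaptor that binds p75, fell from 182 ± 25.0 to 105 ± 19.7 FPKM (SD, n = 4), and Ngfrap1, also known as Bex3, from 170 ± 88.5 to 70.5 ± 5.07 FPKM (SD, n = 4), with limma adjusted p-values of 0.00514 and 0.0326. The call of Ngfrap1 was lost without the 2D library of mouse 2 or 5 or any of the 3D libraries, with limma adjusted p-values between 0.0504 and 0.0891. Lingo1 and Rtn4r form a receptor complex with p75 at the surface of neurons. Their means fell from 0.811 and 0.923 FPKM in 2D to 0.00598 and 0.0987 FPKM in 3D. The fitted log2 changes were -0.83 and -0.78, and the pseudocount of 1 exceeds these means. Bex1 rose from at most 0.149 FPKM in 2D to between 0.475 and 3.86 FPKM in 3D (limma's adjusted p = 0.00855), and without the 2D libraries of mice 3 and 4 the adjusted p of limma was 0.0563.

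Of 7 proteases that can cleave proneurotrophins, 2 fell (28.6%) and 1 rose (14.3%), against 20.3% and 21.2% of all genes tested. Pcsk6, a proprotein convertase, fell from 9.82 ± 6.69 to 0.0948 ± 0.0888 FPKM (SD, n = 4), and Furin stood at 29.9 ± 9.52 and 40.8 ± 6.70 FPKM (SD, n = 4; limma's adjusted p = 0.138). Plat, which encodes tissue plasminogen activator, was at 76.9 and 67.4 FPKM in 3D for mice 4 and 5, at 6.31 and 13.1 FPKM in 3D for mice 1 and 7, and between 22.4 and 37.9 FPKM in 2D. Among 7 other neurotrophic factors and receptors, Ptn (pleiotrophin), Manf and Cdnf fell (42.9%) and 0 rose, against the same shares of all genes tested. The mean of Ptn fell from 11.8 ± 11.2 to 0.356 ± 0.393 FPKM (SD, n = 4), a fitted log2 change of -2.91 (SE 0.56, adjusted p of 0.00447 by limma). Cntf, ciliary neurotrophic factor, stood at 2.26 ± 0.630 and 1.54 ± 0.309 FPKM (SD, n = 4; limma's adjusted p = 0.177).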
